A study of Mus musculus with 20 samples.

Results

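The apolipoprotein genes described here are Apoa1, Apoa2, Apoa4, Apoa5, Apob, Apoc1, Apoc3, Apoe, Apoh and Apom, 10 of the 21887 protein-coding genes in the mouse gene table used. They were chosen by name. Each gene was given a window, its annotated span and 5 kb on either side, and every called region of histone H3 lysine 27 acetylation (H3K27ac) that overlapped the window was assigned to it. The acetylation had been measured by ChIP-seq (immunoprecipitation of chromatin followed by sequencing) in hepatocytes, the working cells of the liver, which had been obtained by perfusion of livers of C57BL/6N mice aged 5 months (young) and of C57BL/6J mice aged 23 months (old). The series comprised 20 samples, namely 5 H3K27ac libraries and 5 input samples for each age. Only the lists of called regions of the 10 H3K27ac libraries entered the analysis, each with an input value per region. Human chromatin had been added to all samples as a spike-in, and its use for scaling was not analysed here. Age went with substrain throughout, and they cannot be told apart in any comparison below. Whether every library had its own mouse is not said in the labels, and the p-values therefore refer to spread among libraries that may in part be technical.

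Apolipoproteins are the protein part of lipoproteins, the particles that carry triglyceride, cholesterol and phospholipid in blood. Some hold a particle together, some act as ligands for its uptake by cells, and others switch the enzymes that release its fat on or off. The liver makes most of the plasma pool of this family, and its genes are driven by hepatocyte factors such as HNF4A. H3K27ac marks promoters and enhancers in use. It does not measure the transcript or the protein.

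All 10 genes had at least 1 called region in their window in all 10 libraries. Values below are the summed tags of those regions on the authors' scale of 10000000 tags per library (scaled tags). The windows did not stand for 10 separate loci. On chromosome 9 the windows of Apoa1, Apoc3 and Apoa4 drew on the same regions, and on chromosome 7 those of Apoc1 and Apoe did. The windows also held other genes: Sik3 for Apoa1, Nr1i3, Tomm40l and Fcer1g for Apoa2, Zpr1 for Apoa5, Tomm40 for Apoe, and Gpank1, D17H6S53E and Bag6 for Apom.

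The RefSeq promoter table (assembly GRCm38.p6, to which mm10 corresponds) held 12 start sites for 8 of the 10 genes, each with 250 bases before and 50 after the start. Those of Apoc1 and Apoc3 were not analysed here. The 250 bases before 1 start site are printed for each of 6 genes, 5′ to 3′ on the strand of the gene, to show promoters that lay inside the called regions of all 10 libraries. The starts of Apoa4, the other start of Apoa5 and the other 2 of Apoe were covered in all 10 as well and are not printed. Capitals mark matches on either strand to any of 7 short motifs: TATAAA (core promoter element bound by TBP), CAAAGTCCA (part of the HNF4A site), GTTAAT (part of the HNF1 site), TGTTTAC (FOXA), TTGCGCAA (C/EBP), AGGTCA (the unit of nuclear receptor sites) and CACGTG (E box of USF).
Apoa1, chr9:46228380-46228629, plus strand: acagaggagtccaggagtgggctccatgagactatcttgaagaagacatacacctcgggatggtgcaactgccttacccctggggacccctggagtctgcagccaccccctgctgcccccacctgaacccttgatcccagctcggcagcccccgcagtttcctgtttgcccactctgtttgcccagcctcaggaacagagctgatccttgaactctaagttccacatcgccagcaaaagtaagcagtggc
Apob, chr12:7977427-7977676, plus strand: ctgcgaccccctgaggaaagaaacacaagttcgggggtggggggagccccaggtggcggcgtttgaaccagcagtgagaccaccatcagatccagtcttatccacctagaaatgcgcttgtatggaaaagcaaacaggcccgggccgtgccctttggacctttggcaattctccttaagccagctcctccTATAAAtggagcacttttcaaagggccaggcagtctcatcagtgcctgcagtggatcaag
Apoa2, chr1:171224804-171225053, plus strand: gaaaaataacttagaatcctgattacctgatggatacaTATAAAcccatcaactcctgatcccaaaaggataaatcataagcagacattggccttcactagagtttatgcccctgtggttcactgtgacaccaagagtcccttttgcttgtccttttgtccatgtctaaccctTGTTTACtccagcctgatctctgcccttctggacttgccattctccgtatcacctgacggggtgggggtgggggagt
Apoa5, chr9:46268358-46268607, plus strand: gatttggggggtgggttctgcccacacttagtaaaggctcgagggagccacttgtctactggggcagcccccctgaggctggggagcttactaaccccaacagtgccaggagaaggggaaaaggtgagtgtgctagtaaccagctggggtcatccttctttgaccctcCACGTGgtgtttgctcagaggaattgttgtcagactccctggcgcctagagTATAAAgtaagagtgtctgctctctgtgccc
Apoe, chr7:19699189-19699438, minus strand: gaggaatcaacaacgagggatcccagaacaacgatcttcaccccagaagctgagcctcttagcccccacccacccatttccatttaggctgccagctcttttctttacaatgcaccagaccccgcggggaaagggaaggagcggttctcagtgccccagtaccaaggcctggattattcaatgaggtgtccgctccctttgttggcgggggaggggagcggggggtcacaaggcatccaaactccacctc
Apoh, chr11:108395047-108395296, plus strand: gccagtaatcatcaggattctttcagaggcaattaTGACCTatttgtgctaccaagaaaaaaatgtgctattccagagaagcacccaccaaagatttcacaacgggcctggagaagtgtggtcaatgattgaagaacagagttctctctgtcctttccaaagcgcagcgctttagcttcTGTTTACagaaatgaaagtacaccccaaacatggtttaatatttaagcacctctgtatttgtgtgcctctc
In the printed Apoa5 sequence a TATAAA began 31 bases and a CACGTG 82 bases before the start. In Apob a TATAAA began 60 bases before the start. TGTTTAC began 77 bases before the start of Apoa2 and 71 bases before that of Apoh. Over all 32851 windows of the table, 13.6% held TATAAA, 3.65% TGTTTAC, 7.15% CACGTG, 16.3% AGGTCA, 7.1% GTTAAT, 0.47% CAAAGTCCA and 0.18% TTGCGCAA. Of the 12 windows of these genes, 5 held TATAAA (Apoa2, Apob, both of Apoa5 and 1 of Apoe), 3 TGTTTAC, 2 CACGTG, 2 AGGTCA and 1 GTTAAT, and none held CAAAGTCCA or TTGCGCAA. At 1 Apoe start 2 TATAAA matches on opposite strands overlapped, and no other matches in a window shared bases. The Apoa5 windows overlap and hold the same matches. The printed stretches of Apoa1 and Apoe held none of the 7 motifs, while both other Apoe windows held matches, and a missing match says only that these letters were not in that window.

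In all 10 genes the mean scaled tags were lower in old than in young libraries, with changes from −17.0% (Apoh) to −37.8% (Apoa4). Scaled tags were also lower over the genome as a whole: the median log2 difference (old minus young) over the 9703 tested genes, those with a region in all 10 libraries, was −0.34 before centring. Relative to that median, 8 of the 10 genes were lower in old libraries and 2 (Apoh and Apom) higher, and the direction of Apoh and Apom flips when the libraries are not centred. None of the 10 passed an adjusted p of 0.05 in limma (lowest 0.414, for Apob), and none had an unadjusted p under 0.05, against 1329 of the 9703 genes. A p that misses the threshold does not show that the ages did not differ. Over all tested genes 21 passed (12 higher and 9 lower in old libraries), which is 0.216%. The median centred difference was −0.20 for the 10 genes and 0.00 for all tested genes. Without centring the members' median was −0.54, and again none passed (lowest adjusted p 0.0664, for Apob), while 87 of all genes did, 0.897%, of which 2 were higher and 85 lower. In none of the 10 genes did all 5 old libraries lie below all 5 young ones, an arrangement that 9.23% of tested genes showed. In these bulk libraries, fewer cells carrying the mark and less of the mark per cell cannot be told apart.

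**Figure D1:**
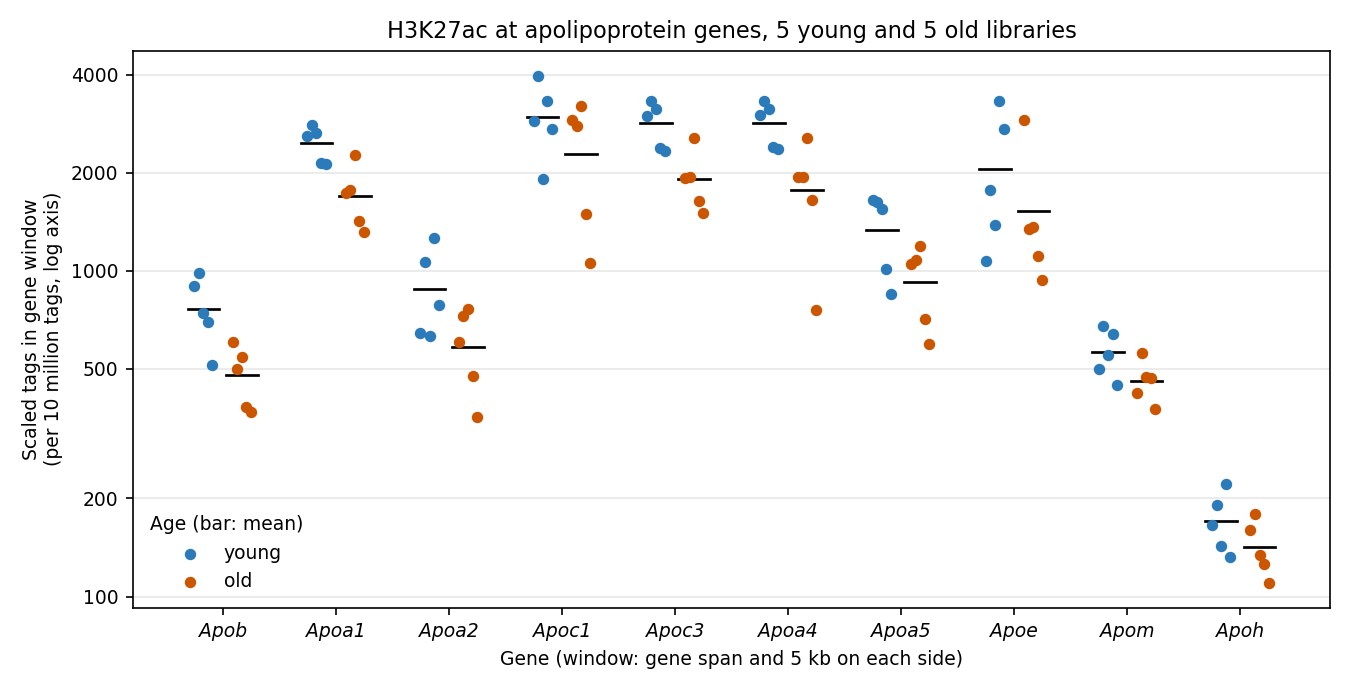
Scaled tags (vertical log axis, per 10000000 tags) in the window of each apolipoprotein gene, with 1 point per library and a bar at the mean of each age. For every gene the old mean lies below the young mean and the points of the ages overlap, from 110 scaled tags (Apoh, old) to 3960 (Apoc1, young).

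Library properties differed, some of them with age. IP efficiency (tags inside called regions as a percentage of all tags) was 34.6% to 48.2% in young and 24.5% to 35.8% in old libraries. Total tags ranged from 6295930 (old 5, which also had the lowest IP efficiency and the fewest regions, 21213) to 15544145 (young 5, with an estimated fragment length of 620 bp against 414 to 444 bp elsewhere). The 8 hepatocyte markers examined, Alb, Ttr, Serpina1a, Tat, Cps1, Cyp2e1, Hnf4a and Ahsg, had regions in all 10 libraries, and all 8 had centred differences below 0 (median −0.44). Their summed scaled tags were 6345 to 9179 in young and 3086 to 5841 in old libraries. Per kb of called length their median difference was −0.04. In 2 of these 8 genes all old libraries lay below all young ones in scaled tags, beside 9.23% of tested genes. Of the 25 markers of other liver cells, 14 had no called region in any library, among them Clec4f, Adgre1 and Vsig4 (Kupffer cells), Kdr (endothelium), Lrat and Dcn (stellate cells), Krt19 and Epcam (bile ducts) and Ptprc and Cd3e (lymphocytes). Cd68, Stab2, Sox9 and Nkg7 had a region in all 10. The sums of these lists in young and old libraries were 722 to 1068 and 482 to 853 for Kupffer cells, 252 to 377 and 125 to 452 for endothelium, 0 to 144 and 44.5 to 103 for stellate cells, 253 to 580 and 222 to 520 for bile ducts, and 370 to 760 and 415 to 601 for lymphocytes. The ranges for Kupffer cells were those of the Cd68 window alone. Of the other markers in that list, Csf1r had a region only in young 4 (12.5 scaled tags) and the rest had none. With IP efficiency as a covariate, limma left 0 of 9703 genes past the threshold (1204 at an unadjusted p under 0.05). In that fit 6 of the 10 apolipoprotein genes were below 0, from −0.39 at Apoc3 and −0.36 at Apoa1 to 0.23 at Apoc1. Without young 5 and old 5, 7 of the 10 were below 0 and none passed (lowest adjusted p 0.385). The part of the hepatocyte markers' difference in that of the members was not tested.

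Apob encodes the large scaffold protein of very low density and low density lipoprotein, of which each particle carries a single copy, and it is also the ligand through which the LDL receptor takes the particle up. The gene lies on chromosome 12, 7977629 to 8016839. In young libraries 1 to 5 its window held 895, 983, 741, 698 and 512 scaled tags, and in old libraries 1 to 5 it held 603, 500, 543, 383 and 369. Young 5, the deepest library, was the lowest young one and lay below old 1 and old 3, so the ages overlapped, and 3 of the 5 old libraries lay below every young one. The means were 766 ± 182 in young and 479 ± 102 in old (SD, n = 5 each). The centred log2 difference was −0.32 ± 0.17 (SE), with a limma adjusted p of 0.414, and it was −0.20 without young 1.

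At Apob the means differed in called length more than in tags per kb. The called length in its window was 8998 ± 2311 bp in young libraries and 5659 ± 1189 bp in the old (SD, n = 5 each). Young libraries 1 to 3 had 10961, 11098 and 9879 bp, young 4 and 5 had 6303 and 6748 bp, and the old libraries ranged from 4162 to 6987 bp. The young values thus formed a long and a short set, and the short ones lay among the old ones. The region over the Apob start reached 8.19 and 8.64 kb into the gene in young 1 and 2, whereas in young 3 to 5 it reached 3.06 to 4.08 kb, within the old range of 2.94 to 4.11 kb. In old 1 and old 2 separate smaller regions ended 7.21 and 7.66 kb beyond the annotated gene start, so the longer reach of the start region rests on 2 young libraries. Tags per kb of called length were nearly level, 86.4 ± 14.6 in young and 85.2 ± 10.6 in old. Neither measure passed in limma: the centred log2 difference was −0.49 (adjusted p = 0.54) in length and 0.17 (adjusted p = 0.672) in tags per kb. Over all tested genes, length gave 1 call (0.0103%) and tags per kb 9 (0.0928%), and none of the 10 apolipoprotein genes passed in either.

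**Figure D2:**
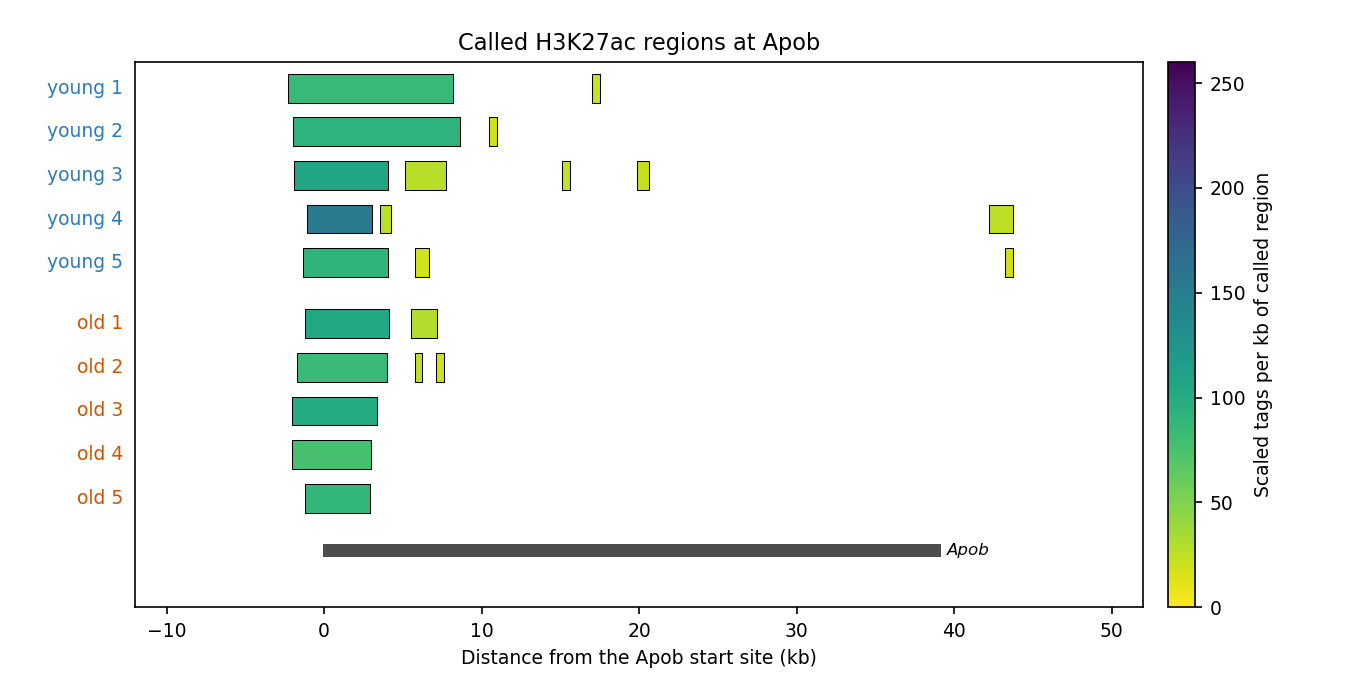
Called H3K27ac regions that overlap the Apob window in each library, by distance from the Apob start site in kb, with colour for scaled tags per kb and the gene as a grey bar. The region over the start is longest in young 1 and young 2 (to 8.64 kb), and small regions beyond 10 kb appear in young libraries alone.

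Farther along Apob, 5 small merged regions (500 to 1493 bp) were called in young libraries alone. Of these, 4 lay within the gene and were called in 1 library each, and 1 lay beyond its end and was called in 2. Those within the gene held 9.21 to 17.0 scaled tags, and the one beyond its end held 38.7 in young 4 and 9.33 in young 5. The smallest value that the caller kept was 6.43 to 10.3 scaled tags per library (8.53 in young 4), and a missing call does not show missing signal. The region over the start, called in all 10 libraries, held 747 ± 186 scaled tags in young and 479 ± 102 in old (SD, n = 5 each), a centred log2 difference of −0.33 (unadjusted p = 0.0447, limma adjusted p = 0.277).

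Apoa1 encodes the chief protein of high density lipoprotein and the activator of the cholesterol-esterifying enzyme LCAT, and lies on chromosome 9, 46228630 to 46230469. Its window held 2584, 2800, 2649, 2147 and 2129 scaled tags in young libraries 1 to 5. The old libraries 1 to 5 held 1731, 1770, 2270, 1421 and 1315. Of the 5 old libraries, 4 lay below all young ones, and old 3 lay within the young range. That order depends on region borders, since young 5, the lowest young library, had called a longer region there than the others. In the merged domain described below, young 5 (2129) lay below old 1 (2186), old 2 (2170) and old 3 (2843). For the Apoa1 window the centred log2 difference was −0.21 ± 0.16 (SE, limma adjusted p = 0.571). It was −0.13 without young 1 and −0.05 when each region counted only by its share inside the window.

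At Apoa1 the difference lay more in density than in length. Tags per kb at Apoa1 were 178, 175, 183, 135 and 89.5 in young libraries 1 to 5 and 115, 117, 144, 97.0 and 99.7 in old ones. Young 1 to 3 lay above all old libraries, and young 5 lay below all of them. That library had called a region of 23800 bp there, against 13193 to 15995 bp in the other 9. In tags per kb the centred log2 difference was −0.20 (limma adjusted p = 0.638) and that in length −0.01 (adjusted p = 0.983).

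Apoc3, an inhibitor of lipoprotein lipase and of the uptake of triglyceride-rich particles, lies next to Apoa1 on chromosome 9, 46233050 to 46235636. A single region ran over both genes in 9 libraries, and in old 5 it was split into 2. In young libraries the region reached from 6.09 to 15.5 kb before the Apoa1 start to 8.03 to 8.42 kb beyond it. The Apoc3 window held 2995, 3325, 3147, 2374 and 2334 scaled tags in young libraries 1 to 5 and 1932, 1939, 2564, 1641 and 1502 in old ones. As at Apoa1, 4 of the 5 old libraries lay below every young one and old 3 did not. The longer region of young 5 was counted here too, and in the merged domain young 5 lay below old 1, old 2 and old 3. For the Apoc3 window the centred log2 difference was −0.23 ± 0.17 (SE, limma adjusted p = 0.553). It was −0.15 without young 1 or without young 3, and −0.12 by the share of regions inside the window. Since 38% to 91.3% of these tags (median 87.6%) came from regions that touched Apoc3 itself and most of them were also counted for Apoa1, the genes are not separate observations.

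**Figure D3:**
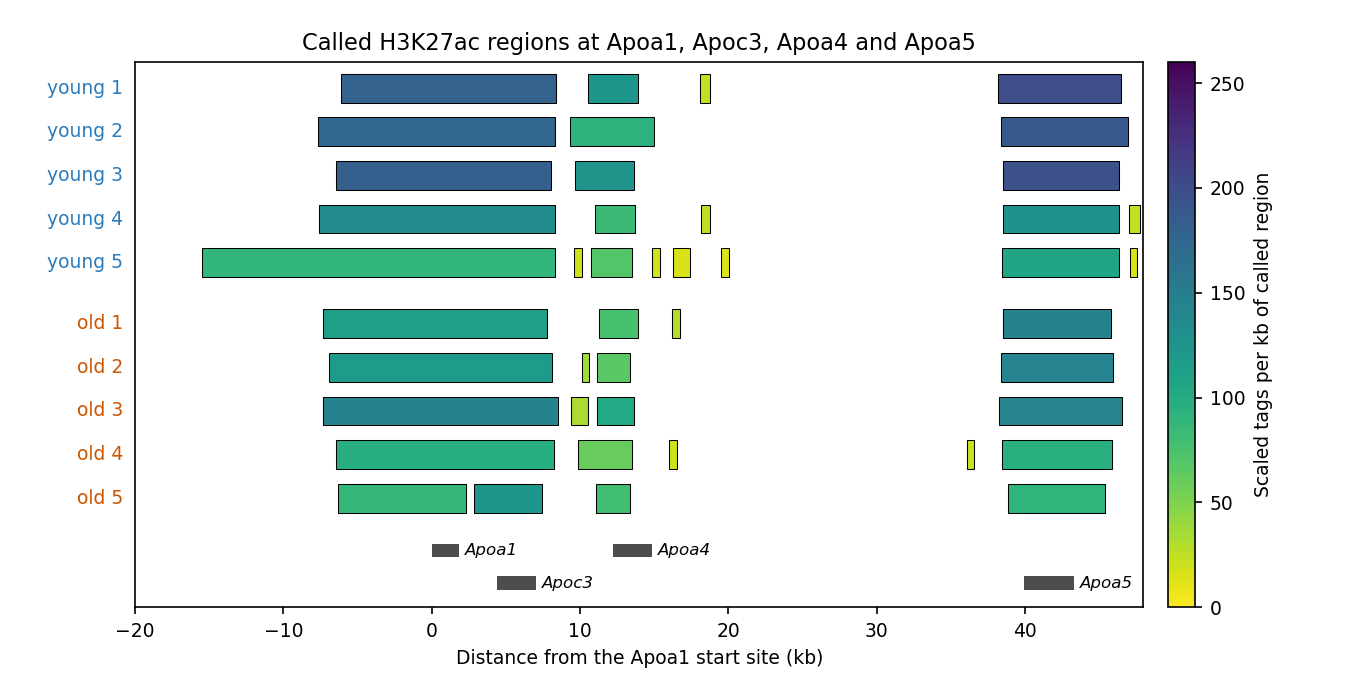
Called H3K27ac regions that overlap the windows of Apoa1, Apoc3, Apoa4 and Apoa5 in each library, by distance from the Apoa1 start site in kb, with colour for scaled tags per kb and genes as grey bars. A single region spans Apoa1 and Apoc3 in 9 libraries, is split in old 5 and reaches farthest upstream in young 5 (15.5 kb), and Apoa4 and Apoa5 have regions of their own.

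The merged domain over Apoa1 and Apoc3 (chromosome 9, 46212379 to 46237121) held 2956 ± 527 scaled tags in young libraries and 2102 ± 492 in the old (SD, n = 5 each). Its centred log2 difference was −0.21 (limma adjusted p = 0.48). The value per kb differed by −0.22. The domain was the strongest region in the windows of Apoa1, Apoc3 and Apoa4. In young 5 it was the single region that began 15.5 kb before the Apoa1 start. In every other library its tags also include signal called before the Apoa1 window. In young 1, for example, the domain held 3242 scaled tags and the Apoa1 window 2584.

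Apoa4, a protein of chylomicrons and high density lipoprotein made mostly in the intestine, lies on chromosome 9, 46240844 to 46243458. Its window held 3011, 3325, 3147, 2391 and 2368 scaled tags in young libraries 1 to 5 and 1947, 1939, 2564, 1650 and 757 in old ones. Old 5 was far below the rest. Its Apoa1 domain was split, and the nearer piece alone fell within the window. Only 7.8% to 24.7% of the window's tags (median 11.8%) came from regions touching Apoa4. The centred log2 difference of −0.43 ± 0.23 (SE, limma adjusted p = 0.431) therefore mixes the neighbouring domain with the region of Apoa4. It was −0.24 without old 5.

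The region over Apoa4 itself (46237982 to 46244022) was weaker. It held 412, 525, 498, 227 and 214 scaled tags in young libraries 1 to 5 and 201, 169, 294, 220 and 187 in old ones. Young 1 to 3 lay above all old libraries, while young 4 and young 5 lay among them. The centred log2 difference was −0.44 ± 0.27 (SE, limma adjusted p = 0.428).

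Apoa5, which enhances the action of lipoprotein lipase and keeps plasma triglyceride low, lies farther along chromosome 9, 46268608 to 46271921, with the CACGTG and TATAAA matches shown above. Its window held 1647, 1622, 1542, 1010 and 850 scaled tags in young libraries 1 to 5 and 1053, 1080, 1190, 709 and 595 in old ones. The young libraries split again into 1 to 3, which lay above all old libraries, and 4 and 5, which lay below old 1 to 3. The means were 1334 ± 375 and 925 ± 258 (SD, n = 5 each). The log2 difference after centring stood at −0.18 ± 0.23 (SE, limma adjusted p = 0.748), and it ranged from −0.34 without young 4 to −0.03 without young 1. Called length was 8334 ± 305 bp and 7528 ± 665 bp, so most of the difference was in tags per kb, 161 ± 47.2 in young and 122 ± 29.0 in old libraries.

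Apoa2, the other abundant protein of high density lipoprotein, lies on chromosome 1, 171221564 to 171226379. In young libraries 1 to 5 its window held 644, 1061, 629, 1260 and 788 scaled tags, and in old ones it held 605, 726, 765, 474 and 356. Young 2 and young 4, the libraries with the highest IP efficiency, were the highest, and 3 old libraries lay below every young one. A neighbouring region that did not touch Apoa2 was called in all 10 libraries. It reached the window only in young 2, 4 and 5 and old 2 and 3, with 247 to 316 scaled tags. Regions touching Apoa2 held 56.9% to 100% of the window's tags (median 77.0%). On the centred log2 scale the window differed by −0.24 ± 0.14 (SE, limma adjusted p = 0.469), and by 0.01 with IP efficiency as a covariate.

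The start sites of Apoa2 differed in coverage. The one farther into the annotated span, whose upstream bases are printed above, was covered by a region in all 10 libraries. The outer one was covered in 4 young libraries and 1 old library. The merged region over the gene (171218859 to 171234672) held 763 ± 140 scaled tags in young libraries and 534 ± 111 in the old (SD, n = 5 each). After centring, the log2 difference was −0.23, with an unadjusted p of 0.0341 and a limma adjusted p of 0.246. Per kb it was −0.01.

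Apoe, the ligand that brings remnant particles to the LDL receptor and its relatives, and Apoc1, a small exchangeable protein that hinders that uptake, are neighbours on chromosome 7. Apoe spans 19696244 to 19701310 and Apoc1 spans 19689480 to 19692659. The Apoe window held 1068, 1772, 1379, 3317 and 2730 scaled tags in young libraries 1 to 5 and 2894, 1343, 1364, 1111 and 937 in old ones. Young 4, young 5 and old 1 stood apart from the other 7. In those 3 libraries a single region of 28606 to 29310 bp ran over both genes. In the other 7 it was broken, and 2 to 4 regions overlapped the windows of these genes. The centred log2 difference at Apoe was −0.08 ± 0.29 (SE, limma adjusted p = 0.929), the largest standard error of the 10 genes.

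The Apoc1 window held 2879, 3960, 1909, 3317 and 2730 scaled tags in young libraries 1 to 5. In old libraries 1 to 5 it held 2894, 2780, 3199, 1490 and 1059. Old 1 to 3 lay within the young range, and old 4 and 5 lay below it. Relative to the median gene, the log2 difference was −0.11 ± 0.22 (SE, limma adjusted p = 0.847).

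The merged domain over both genes (19673521 to 19704575) does not depend on where each library was broken. It held 2879, 3960, 3401, 3327 and 2730 scaled tags in young libraries 1 to 5 and 2894, 2780, 3199, 2345 and 2035 in old ones. The means were 3259 ± 485 and 2650 ± 461 (SD, n = 5 each). Relative to all regions called in every library, the log2 difference was −0.01 ± 0.09 (SE, limma adjusted p = 0.975), the closest to 0 among the domains of these genes except for the strongest region in the Apom window (0.00).

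**Figure D4:**
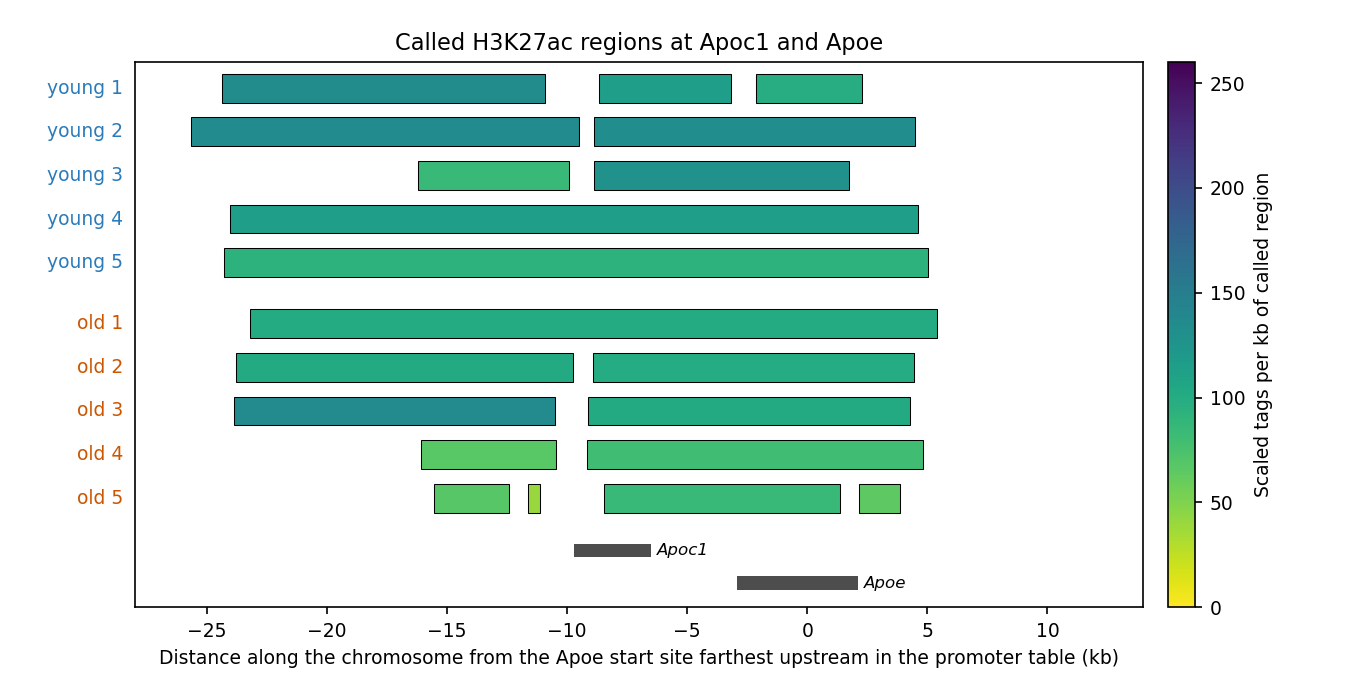
Called H3K27ac regions that overlap the windows of Apoc1 and Apoe in each library, by distance in kb from the Apoe start site farthest upstream in the promoter table (Apoe reads towards negative values), with colour for scaled tags per kb and genes as grey bars. A single unbroken region is seen in young 4, young 5 and old 1, and 2 to 4 regions in the other libraries.

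Apom carries sphingosine-1-phosphate on high density lipoprotein. It lies on chromosome 17, 35128997 to 35131801, in a gene-dense stretch. Its window held 499, 675, 553, 641 and 447 scaled tags in young libraries 1 to 5 and 420, 557, 474, 468 and 376 in old ones. The ages overlapped, and the centred log2 difference was 0.05 ± 0.10 (SE, limma adjusted p = 0.849). Between 0% and 17.6% of these tags (median 11.4%) lay in regions touching Apom. The strongest region of the window (35134210 to 35137501) lay outside Apom, and its centred log2 difference was 0.00 (limma adjusted p = 0.992).

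The region at the Apom start itself held 34, 97.3, 50.4, 80.1 and 56.3 scaled tags in young libraries 1 to 5 and 73.8, 54.8, 82.4, 48.2 and 24.6 in old ones. It covered the annotated start in 5 young and 4 old libraries. The log2 difference after centring was 0.11 ± 0.29 (SE, limma adjusted p = 0.874), and the ages overlapped over most of their ranges.

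Apoh, or beta-2-glycoprotein I, is a plasma protein that binds phospholipid and circulates partly on lipoproteins. It lies on chromosome 11, 108395297 to 108414396. It had the fewest tags, 166, 191, 143, 222 and 132 in young libraries 1 to 5 and 160, 179, 134, 126 and 110 in old ones. The ages overlapped over most of their ranges. On the centred log2 scale the difference was 0.08 ± 0.14 (SE, limma adjusted p = 0.823), and all of the tags came from regions touching the gene. Its called length was the only one with a higher mean in old libraries, 3170 ± 987 bp against 3026 ± 556 bp in young (SD, n = 5 each), and old 2 was the longest with 4895 bp.

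Per kb of called length, which puts genes on a common scale, the order over the 10 libraries was Apoa5 (141), Apoa1 (133), Apoc3 (124), Apoa4 (124), Apoc1 (106), Apoe (104), Apob (85.8), Apom (83.0), Apoa2 (64.1) and Apoh (51.2). Apoa5 exceeded Apoa1 in 6 of 10 libraries and Apob exceeded Apom in 6 of 10, so neither pair was ordered beyond its spread. Apoc3 and Apoa4 draw on the same regions: Apoc3 was higher in 5 libraries, tied in 4 and lower in 1. Apoc1 was likewise above Apoe in 4, tied in 3 and below in 3. The steps from Apom to Apoa2 and from Apoa2 to Apoh held in all 10 libraries. So did that from Apoa1 to Apoc3, but the Apoc3 window holds the Apoa1 domain together with weaker regions, so this is no independent order. Those from Apoa4 to Apoc1 and from Apoe to Apob held in 9 of 10. The place of Apom is that of its window, where regions touching Apom held a median of 11.4% of the tags. The region over the Apom start had 25.6 to 44.3 tags per kb in young and 29.7 to 48.9 in old libraries. Over the inner Apoa2 start the ranges were 56.8 to 87.6 and 54.6 to 81.7. Over the Apoh start they were 52.6 to 67.5 and 44.0 to 57.1. Among the 9703 tested genes, 8.42% were denser than Apoa5, 45.9% denser than Apob and 86.6% denser than Apoh. The family thus ran from the densest part of the tested genes to the sparse end.

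**Figure D5:**
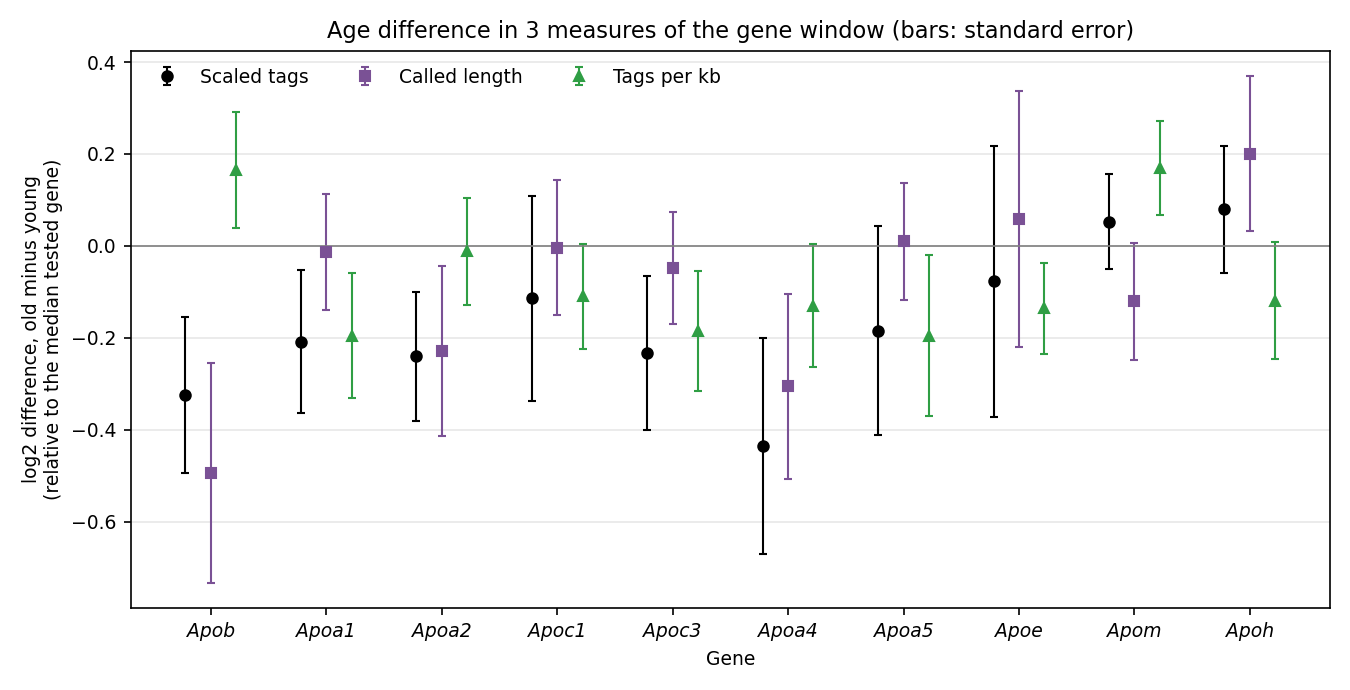
Log2 difference (old minus young, relative to the median tested gene) in scaled tags, called length and tags per kb for each gene, with bars for the standard error. Apob is lowest in length (−0.49) and above 0 in tags per kb (0.17), whereas Apoa1, Apoc3 and Apoa5 lie near 0 in length and below it in tags per kb (−0.20, −0.19 and −0.19).

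In tags per kb, 8 of the 10 genes had centred differences below 0 (all but Apob and Apom), with a median of −0.12 against 0.01 for all tested genes. In called length 7 were below 0, with a median of −0.03 against 0.01. The input in the same windows, scaled to each library, averaged from 10.2 (Apoh, young) to 227 scaled tags (Apoc1, young). Tags over input were 10.7 to 18.2 times in young and 8.77 to 13.0 times in old means. The old mean was lower for every gene, with changes from −18.3% (Apom) to −30.0% (Apoa5), and the ages overlapped in all 10. These ratios were not centred, and no value over all tested genes stands beside them. They therefore do not show whether the members differed from other genes.

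Merging the regions of all libraries gave 23 distinct regions in the 10 windows. Of these, 11 were called in all 10 libraries and could be tested, and 12 in fewer, of which 6 were called in a single library. Of the 11, 8 had centred differences below 0, 0 passed in limma and 2 had an unadjusted p under 0.05, those over Apob and Apoa2 given above. Among all 12550 regions called in every library 134 passed, 1.07%, with 67 in each direction, and 2156 had an unadjusted p under 0.05.

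Beyond the members, 5 further lists of genes were read in the same fit. In none did a gene pass in either direction, beside the 0.216% of all genes. Of 14 other apolipoprotein genes 11 were tested, with a median centred difference of −0.06. The smallest p-values in that list were those of Apol9b, Apol9a and Apol8, relatives of the human APOL proteins. Apol9b held 302 ± 50.5 scaled tags in young libraries and 320 ± 52.3 in the old (SD, n = 5 each; 0.42, limma adjusted p = 0.212). The differences were 0.39 for Apol9a (adjusted p = 0.257) and 0.74 for Apol8 (adjusted p = 0.433). Without centring they were 0.08 for Apol9b, 0.05 for Apol9a and 0.40 for Apol8. In called length the centred differences were 0.42, 0.19 and 0.37 in that order, and in tags per kb 0.0049, 0.20 and 0.37. Apol9a and Apol9b are near-identical copies, so tags could be split between them. Apoc2 (−0.31) and Apoc4 (−0.23) shared regions with Apoc1 and Apoe and are not separate evidence. In 1 of the 11 tested genes all old libraries lay below all young ones, beside 9.23% of all genes. This was Clu, named after its values were seen, with 340 to 560 scaled tags in old and 571 to 744 in young libraries. Its centred difference was −0.18. Saa2, an acute phase apolipoprotein, had a region in 5 young and 2 old libraries and was not tested.

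All 11 genes of lipoprotein assembly and secretion were tested, and their median difference was 0.01. A1cf, the partner of the enzyme that edits the Apob transcript, held 226 ± 89.7 scaled tags in young libraries and 115 ± 50.6 in the old (−0.66, limma adjusted p = 0.347). Sort1, a sorting receptor for ApoB particles, differed by 0.35 (adjusted p = 0.473), or 0.01 without centring. P4hb, the smaller subunit of the microsomal triglyceride transfer complex, differed by 0.17 (adjusted p = 0.545), a sign that flips without centring.

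Of 10 receptor and clearance genes 8 were tested, with a median of 0.07. The 3 smallest p-values included those of Lrp8, an ApoE receptor (0.30, limma adjusted p = 0.423), and Sdc1, a heparan sulfate proteoglycan that takes up remnants (−0.14, adjusted p = 0.635). The sign of Lrp8 flips without centring, and in both genes the ages overlapped.

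Of 13 genes of plasma remodelling 10 were tested, with a median of −0.12. Pltp, the phospholipid transfer protein, came closest to the threshold. It held 449, 630, 460, 635 and 423 scaled tags in young libraries 1 to 5 and 657, 556, 548, 618 and 494 in old ones, which overlap before centring. After centring, the log2 difference was 0.50 ± 0.10 (SE, limma adjusted p = 0.060), and DESeq2 on the unscaled tags put it past the threshold (0.52, adjusted p = 0.00045), as it did 3.07% of all tested genes. No other refit of Pltp passed. It fell to 0.16 without centring (limma adjusted p = 0.479), and the highest adjusted p was 0.672, with lists of equal length. In called length Pltp differed by 0.55 and in tags per kb by −0.04, so the difference in its tags went with region borders. Angptl8 differed by 0.44 (limma adjusted p = 0.236), or 0.10 without centring, and Angptl4, a secreted inhibitor of lipoprotein lipase, by −0.32 (adjusted p = 0.386). At Angptl4 all 5 old libraries (377 to 684 scaled tags) lay below all 5 young ones (685 to 955), though the ranges nearly met. It was 1 of 10 tested genes of this list with that arrangement, beside 9.23% of all genes. The assembly and receptor lists held 0 such genes.

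All 20 transcription factor genes linked to this family were tested, with a median of −0.09. Rxra, the partner of many nuclear receptors, held 3073 ± 1085 scaled tags in young libraries and 1568 ± 333 in the old (SD, n = 5 each), and the ages did not overlap. Its centred log2 difference was −0.59 (limma adjusted p = 0.133), and DESeq2 put it past the threshold (−0.59, adjusted p = 0.0126), beside 3.07% of all genes. No other refit of Rxra passed, and its difference was −0.27 when the lists were cut to equal length (limma adjusted p = 0.814). In called length Rxra differed by −0.60 and in tags per kb by 0.01. Foxo1, a fasting regulator, differed by −0.32 (limma adjusted p = 0.248), without overlap. Its measures went opposite ways, with −0.75 in called length and 0.43 in tags per kb. In 4 of the 20 genes all old libraries lay below all young ones, against 9.23% of all genes: Rxra, Foxo1 and, named after their values were seen, Cebpa and Nr2f2, whose centred differences were −0.02 and −0.17. Hnf4a, a nuclear receptor central to hepatocyte genes and also among the hepatocyte markers above, held 2606 ± 578 and 1492 ± 314 (−0.46, limma adjusted p = 0.267).

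The genes whose profile over the 10 libraries was most like that of a member were sought on other chromosomes, by the root mean square difference of centred log2 scaled tags, each gene relative to its own mean. For Apoa1 these were Nwd2 (0.08), Pelo (0.10) and Zfp655 (0.10), against a median of 0.34 over all tested genes. Hoga1 (0.09), Elovl6 (0.10) and Mylk4 (0.10) were nearest to Apob, against 0.38. For Apoe, whose profile followed the breaking of its domain, the nearest were Bhmt (0.18), Yaf2 (0.27) and Pomt1 (0.28), against 0.57.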

How the data were processed

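Per the file headers, HOMER in histone mode had been run by the authors on each library with its matched input and no pooling. Peaks of 500 bp at least 1000 bp apart were joined into regions, which needed 4-fold enrichment over input (Poisson p of 1e-04) and over the surrounding 10000 bp. The submitters' processing notes name mm10. Aligner and HOMER version: not given in the sources used here. Deposited for every region were a signal (tags scaled by the authors to 10000000 per library, so it moves with IP efficiency), an input signal scaled alike, unscaled tags in steps of 0.5 that gave expected counts, rounded to whole numbers, a score that served to rank regions for lists of equal length, the fold over input as the authors' ratio, and the length in bp, an other unit.

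Signals and lengths were summed per gene window (5 kb flank, at least 1 bp of overlap). Such sums rise with called length and with stitching, so tags per kb were computed as well. Summed tags plus 1, tags per kb plus 1 and lengths without an addition were taken to log2. The values were centred in each library on its median tested gene and fitted with limma 3.58.1 (trended prior). Benjamini-Hochberg adjustment ran over all 9703 genes at 0.05. Log2 differences understate changes of weak genes. The 46767 merged regions (at least 1 bp shared) were treated alike where called in all 10 libraries. edgeR 4.0.16 and DESeq2 1.42.0 were alternatives, and the limma fit was tested on simulated data. Software was R 4.3.3 and Python 3.11.15 with pandas 2.3.3, numpy 2.4.6 and matplotlib 3.10.9. The members and lists were chosen with earlier results of these data known. All 10 members are named, as is the strongest merged region of each. In the other lists, genes past the threshold were to be named, or else the 3 with the smallest p, of which 1 is not reported here. Promoters came from the RefSeq table and motifs were searched on both strands.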

Additional observations from a re-analysis of the deposited data

Results flagged for a closer look

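In 60 groups of 5 libraries (10 genes, 3 measures and 2 ages), 6 held a library whose gap to its nearest neighbour exceeded 0.71 of the group's range (Dixon's criterion), which chance alone does in about 1 group in 20. Old 1 was set apart at Apoe in scaled tags (2894, nearest 1364) and in called length (28606 bp, nearest 13990 bp), where a single region ran over Apoc1 and Apoe. Young 5 was set apart at Apoa1 in called length (23800 bp, nearest 15995 bp). Old 5 was set apart at Apoa4 in called length (6950 bp, nearest 17833 bp), where the neighbouring Apoa1 domain was split. At Apoh, old 2 was set apart in called length (4895 bp, nearest 3043 bp) and young 5 in tags per kb (44.9, nearest 57.5).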

How the results depend on the processing

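None of the 10 genes passed the threshold in scaled tags in any of 216 refits (lowest adjusted p 0.0664), nor in length or tags per kb in 156 refits each, nor did their 7 strongest regions in 98. The number of all tested genes that passed in scaled tags (21) became 87 without centring, 1 with lists of equal length, 11 without a filter, 32 with the share of a region inside the window, 47 in edgeR, 298 in DESeq2 and 8 without young 5 and old 5 (both left out; chosen after seeing the data). With IP efficiency as a covariate it was 0 in limma (1204 at an unadjusted p under 0.05). For called length (1), it was 2 with lists of equal length and 0 in limma without centring, without a flank and without young 5 and old 5 (1281, 863 and 973 unadjusted). For tags per kb (9), it was 5 without centring, 16 with a 10 kb flank, 2 without young 5 and old 5, and 0 in limma with lists of equal length (566 unadjusted). Of regions (134), 725 passed without centring (28 higher, 697 lower), 40 per kb and 11 without young 5 and old 5. Leaving out each library in turn gave 2 (without old 4) to 68 (without young 1) for scaled tags, 0 to 7 for length, 2 to 11 for tags per kb and 30 (without old 4) to 255 (without young 1) for regions.

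A replicate block gave 4 genes in scaled tags, 6 in length and 6 in tags per kb, and 74 regions. Libraries with the same number did not deviate together (correlations of −0.036, 0.18, 0.133, −0.04 and −0.06), 2 of 5 young libraries correlated best with their own number, and the block is not read as pairing.

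Differences that changed sign were the following, and the cause was not tested. Without centring, scaled tags gave −0.26 at Apoh, −0.29 at Apom, −0.17 at P4hb and −0.04 at Lrp8, length −0.15 at Apoa5 and −0.1 at Apoe, tags per kb −0.01 at Apob and −0.01 at Apom, and the strongest region −0.25 at Apoh and −0.29 at Apom. With IP efficiency as a covariate, scaled tags gave 0.01 at Apoa2, 0.23 at Apoc1, 0.05 at Apoe and −0.02 at Apom. Without young 5 and old 5 they gave 0.07 at Apoc1, 0.16 at Apoe and −0.0019 at Apom, length 0.02 at Apoa1, −0.07 at Apoa5 and 0.1 at Apoc1, tags per kb 0.01 at Apoa2, and the strongest region −0.01 at Apoh and −0.08 at Apom. With a 10 kb flank, scaled tags gave 0.02 at Apoc1 and −0.02 at P4hb, and length −0.04 at Apoa5 and 0.12 at Apoc1. With no flank, scaled tags gave 0.17 at Apoe and tags per kb 0.01 at Apoa2. With lists of equal length, scaled tags gave 0.06 at Apoc1 and −0.49 at Apol9b, and length −0.03 at Apoa5, 0.16 at Apoc1 and −0.0043 at Apoe. With the share of a region inside the window, scaled tags gave 0.15 at Apoe and −0.02 at P4hb. Per kb, the strongest region gave 0.03 at Apob and −0.19 at Apoh. Leaving out each library in turn, scaled tags ranged from −0.23 to 0.05 at Apoc1 and from −0.31 to 0.09 at Apoe. Length then ranged from −0.08 to 0.06 at Apoa1, −0.04 to 0.07 at Apoa5, −0.07 to 0.1 at Apoc1, −0.13 to 0.0023 at Apoc3 and −0.15 to 0.22 at Apoe. Tags per kb ranged from −0.07 to 0.05 at Apoa2, and the strongest region from −0.05 to 0.05 at Apoc1 and Apoe, −0.01 to 0.1 at Apoh and −0.08 to 0.09 at Apom. Lists of equal length left 6397 genes to test and gave no value for Apob and Apoa1, among others. These lists were cut by the deposited score and not by tags, and the Apoa1 window held 1315 to 2800 scaled tags per library in the full lists. This setting therefore does not keep the windows with the most tags. Apart from that, values near the smallest called region are limited by depth, since uncalled signal counts as 0.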
